A study of Mus musculus with 9 samples.

Results

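Collagens are the main structural proteins of the connective tissue around muscle fibres, and their RNA was examined here chain by chain in newborn mouse muscle. Genes were taken by name: every row of the count table whose symbol reads Col, a number, a, a number and nothing after, without the cartilage collagens Col2a1, Col9a1, Col9a2, Col9a3, Col10a1, Col11a1 and Col11a2. This gave 37 chains of 55471 gene rows. The rule uses no expression value. All 37 chains had counts in each of the 9 mice, with 5 counts as the lowest value, and 36 passed the filter on low counts and were tested. Col4a3 was too low to be tested.

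RNA came from the gastrocnemius, a calf muscle, of 5 Shank3Δ11(-/-) mice and 4 Shank3(+/+) controls on the C57BL/6 background at postnatal day 0 to 1, 1 library per mouse. Shank3Δ11(-/-) mice lack exon 11 of Shank3, a scaffold protein of synapses and of the muscle Z-disc, in every cell and on both alleles. They were bred from heterozygous C57BL/6JRj parents, and the deletion is constitutive, so it is not limited to muscle. As in the study, the mice WT1, WT2, WT3 and WT4 were set against KO1, KO3 and KO5, and values of KO2 and KO4 stand beside them, where KO stands for Shank3Δ11(-/-) and WT for Shank3(+/+).

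Library totals ranged from 26444372 counts in KO5 to 40471957 in KO4. Reads over the whole of Shank3 gave 25.7 to 35.0 CPM (counts scaled to the library total after TMM normalization) in the 5 Shank3Δ11(-/-) mice and 32.4 to 38.5 CPM in the 4 Shank3(+/+) mice, which includes reads outside exon 11 and therefore does not check the deletion. The labelled tissue was checked with 6 myofibre markers, which summed to between 49183 and 57142 CPM in the 9 mice. Some mice stood apart in markers of other tissues. In KO4, 9 cartilage markers summed to 430 CPM against 101 to 176 CPM in the other mice. In KO5, 5 adipocyte markers summed to 1126 CPM against 186 to 403 CPM, and 5 Schwann cell markers to 416 CPM against 100 to 206 CPM. In KO1, 4 red cell markers summed to 3366 CPM against 701 to 1285 CPM, and 5 bone markers summed to 6.89 CPM in KO3 and 6.26 CPM in KO5 against 31.1 to 86.6 CPM in the other mice. KO1, KO3 and KO5 are the 3 compared Shank3Δ11(-/-) mice. Xist, the RNA that silences an X chromosome in females, was high in 2 mice of each genotype, KO3 and KO5 with WT3 and WT4, at 618 to 925 CPM. The other mice had no more than 3.23 CPM. Ddx3y of the Y chromosome ran opposite to Xist, at no more than 0.260 CPM in the mice with high Xist and 99.9 to 128 CPM in the others. The labels give no sex.

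A collagen molecule is a triple helix of 3 chains, and each chain carries a glycine in every 3 residues, the Gly-X-Y repeat, because no larger residue fits at the centre of the helix. Fibril-forming collagens (types I, III and V) give tendon and the sheaths around muscle bundles their strength, type IV forms the sheet of the basement membrane that wraps each fibre, and type VI forms beaded filaments between them. FACITs (fibril-associated collagens with interrupted triple helices) sit on the surface of fibrils, multiplexins link basement membranes to their surroundings, and transmembrane collagens are anchored in the cell surface. Mutations in type VI chains cause Bethlem and Ullrich muscular dystrophy. In muscle most collagen is made by fibroblasts rather than by the fibres.

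The repeat that defines the family can be read in the coding exons. Exons of 54 bases, which hold 6 complete Gly-X-Y repeats, are known from fibril-forming chains. Of the 37 chains, 34 had at least 1 coding exon of this length and Col8a1, Col8a2 and Col26a1 had none. In 33 chains such an exon held 6 unbroken repeats, and in Col17a1 none did, by the longest coding transcript in GENCODE M21 (build GRCm38, the sequence of mm10). Col1a1 had 21 exons of this length of 49 complete coding exons and Col1a2 had 24 of 50, whereas Col4a1 had 2 of 50 and Col6a1 3 of 33. The first exon with 6 unbroken repeats is shown for the leading pair of chains of type I, for the leading chains of types IV and VI, and for the 3 chains with the lowest p-values between genotypes. Capitals mark the first codon of each repeat, which codes for glycine, and each exon is written 5′ to 3′ on its coding strand.
Col1a1, exon 8, chr11:94939904-94939957, plus strand: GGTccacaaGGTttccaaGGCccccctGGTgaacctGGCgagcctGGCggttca
Col1a2, exon 8, chr6:4515481-4515534, plus strand: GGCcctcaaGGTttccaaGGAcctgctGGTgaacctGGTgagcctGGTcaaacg
Col4a1, exon 7, chr8:11245211-11245264, minus strand: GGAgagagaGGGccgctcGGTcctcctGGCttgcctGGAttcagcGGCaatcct
Col6a1, exon 9, chr10:76719623-76719676, minus strand: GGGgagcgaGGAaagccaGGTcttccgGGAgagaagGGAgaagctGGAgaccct
Col13a1, exon 24, chr10:61869524-61869577, minus strand: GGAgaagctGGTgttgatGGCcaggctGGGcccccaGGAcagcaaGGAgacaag
Col20a1, exon 27, chr2:181009377-181009430, plus strand: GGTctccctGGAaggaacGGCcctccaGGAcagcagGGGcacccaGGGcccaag
Col22a1, exon 13, chr15:71952523-71952576, minus strand: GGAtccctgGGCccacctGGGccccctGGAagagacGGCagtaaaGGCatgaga

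How far the repeat runs without a break differed by class. Col1a1 held 338 repeats in 1 run, Col1a2 339 and Col3a1 344, and 6 chains, all fibril-forming, had a run over 300. The fibril-forming Col24a1 and Col27a1 had shorter runs of 216 and 217 repeats. In Col4a1 the repeats fell into 22 runs of at least 5 repeats, the longest of 40, and in Col6a1 into 3 runs, the longest of 87. Among FACITs the longest run was 32 repeats in Col12a1, Col14a1 and Col20a1 and 113 in Col22a1. Col26a1 had the shortest longest run, with 23 repeats.

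Levels of different chains were compared per length, as CPM per kilobase of annotated exon, because a longer RNA gives more reads. Per-length levels spanned from 1264 for Col1a1 to 0.0313 for Col4a3, means over 9 mice, and 31 of 37 chains were at or above 1 CPM per kilobase. The 8 fibril-forming chains held 72.0% of the summed per-length level, the 6 beaded filament chains 12.7%, the 6 basement membrane chains 8.82% and the 6 FACITs 3.40%. Multiplexins held 2.02%, transmembrane collagens 0.508%, and the remaining classes 0.257% or less each. With coding length in place of exon length the fibril-forming share was 75.8% and every chain kept its rank within 5 places.

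**Figure D1:**
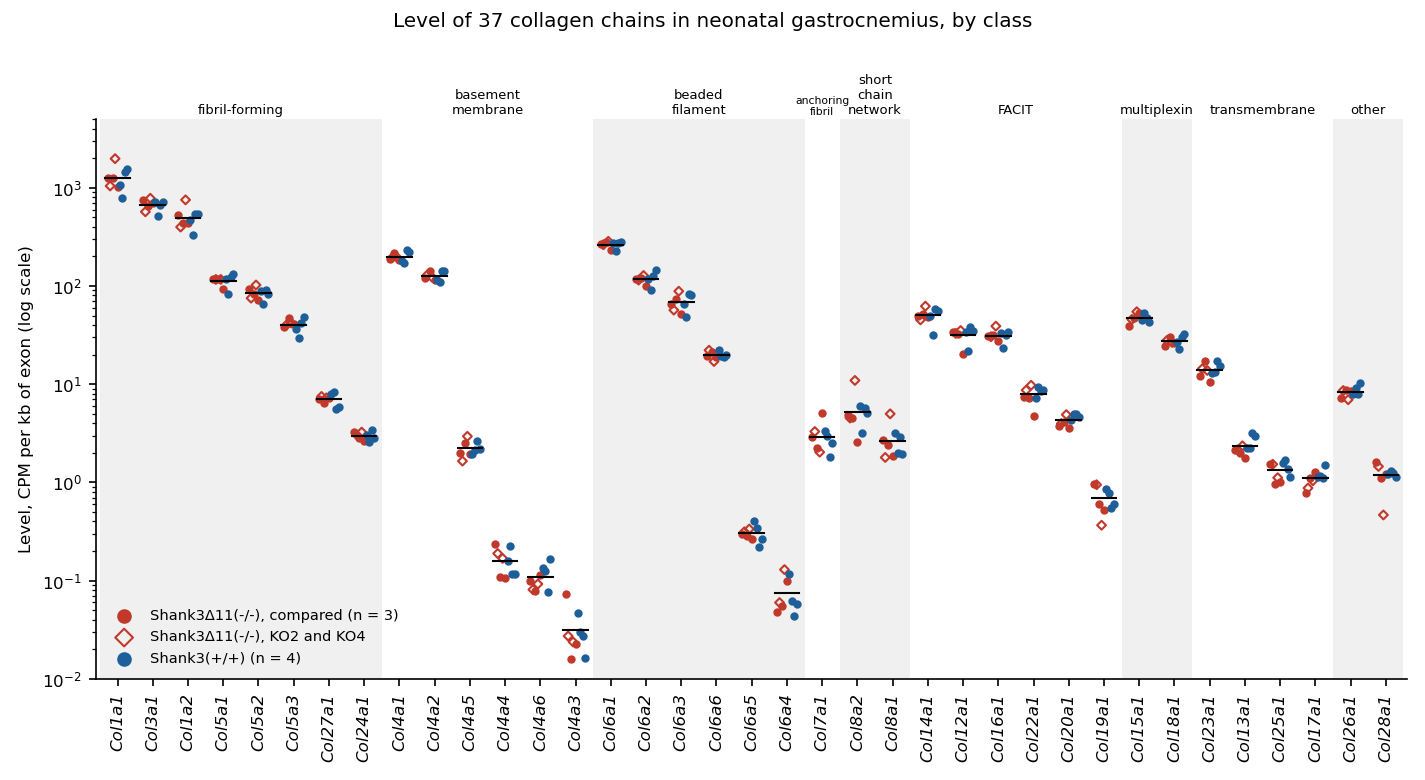
Level of each of the 37 chains in CPM per kilobase of exon on a log axis, grouped by collagen class, with 1 point per mouse and the mean over 9 mice as a line. Col1a1 leads with 1264, and Col4a3 is lowest at 0.0313. The mice of both genotypes lie together at nearly all chains when set against the differences between chains.

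Among fibril-forming collagens, types I and III carried most of the level. Col1a1 and Col1a2 form type I, the main collagen of tendon and bone, and Col3a1 forms type III of softer connective tissue. Per kilobase their means over 9 mice were 1264, 492 and 672. In reads, these 3 chains made up 64.7% (WT2) to 74.3% (KO4) of all counts of the 37 chains after scaling. Type V, which starts fibrils, followed with 113 per kilobase for Col5a1, 83.8 for Col5a2 and 40.5 for Col5a3. The fibril-forming chains of narrower expression, Col27a1 and Col24a1, were at 7.0 and 2.98.

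Basement membrane collagen was almost entirely the common α1 and α2 pair. Col4a1 was at 199 and Col4a2 at 127 CPM per kilobase, and Col4a5 was next at 2.22. Col4a4, Col4a6 and Col4a3, known from the filter of the kidney and other specialised basement membranes, were at 0.158, 0.108 and 0.0313. Their counts per mouse were 30 to 80 for Col4a4, 18 to 41 for Col4a6 and 5 to 23 for Col4a3, so differences between mice in these 3 chains carry large counting error.

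Type VI was led by Col6a1 at 264 CPM per kilobase, ahead of Col6a2 at 118 and Col6a3 at 68.2. These chains assemble in equal numbers in the classical type VI molecule. Of the later-found chains that can take the place of Col6a3, only Col6a6 was above 1 CPM per kilobase, at 19.9. Col6a5 was at 0.304 and Col6a4 at 0.0743.

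FACITs divided into 3 chains above 30 CPM per kilobase and 3 below 8. Col14a1 was at 50.5, Col12a1 at 31.4 and Col16a1 at 31.2, of which Col12a1 and Col14a1 are typical of tendon and dense connective tissue. Col22a1, a chain of the junction between muscle and tendon, was at 7.97, Col20a1 at 4.35 and Col19a1 at 0.688. Of the multiplexins, Col15a1 of the muscle basement membrane was at 47.6, and Col18a1, the source of endostatin, at 27.6. Col23a1 was the highest transmembrane collagen at 14.1, above Col13a1 of the neuromuscular junction at 2.33, Col25a1, which motor axons need to enter muscle, at 1.33, and Col17a1 of the hemidesmosomes of epithelium at 1.11. Col8a2 and Col8a1, short chains of hexagonal networks, were at 5.27 and 2.65, Col7a1 of the anchoring fibrils of skin at 2.90, Col26a1 at 8.34 and Col28a1 at 1.19.

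Neighbours in this order often had ranges over the mice that overlapped. Col12a1 ranged from 20.3 to 38.2 CPM per kilobase and Col16a1 from 23.3 to 39.0, which overlapped over most of their range. Col4a2, with 110 to 144, overlapped with Col6a2, with 91.9 to 144, and with Col5a1, with 83.7 to 132. Within single mice, Col4a2 was above Col5a1 in all but WT1, where they were at 116 and 118. Col4a2 was above Col6a2 in all but KO4, WT1 and WT4. Col1a1 and Col1a2 did not overlap, since the lowest mouse of Col1a1 was at 778 and the highest of Col1a2 at 753. Per kilobase of coding sequence the ranges did overlap, with 1171 for the lowest mouse of Col1a1 and 2273 for the highest of Col1a2, but within every mouse Col1a1 was above Col1a2, by 1.15 to 1.43 times.

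Chains that share a molecule were compared next. CPM in the 9 mice was 8190, 6842, 8185, 12974 and 6712 for Col1a1 in KO1 to KO5 and 7045, 5107, 9440 and 10149 in WT1 to WT4. For Col1a2 it was 6531, 4945, 5481, 9357 and 5411 in KO1 to KO5 and 5799, 4123, 6708 and 6701 in WT1 to WT4. KO4 was highest and WT2 lowest for both chains, and the genotypes overlapped. On log2 CPM the chains correlated with r = 0.96 and rho = 0.95 over 9 mice (adjusted p = 0.00073 for r and 0.00071 for rho over 8 pairs, 2-sided exact permutation test over all pairings). Without KO4 and WT2, the mice farthest from the median of Col1a1, r was 0.83. Collagen I joins 2 α1 chains to 1 α2 chain. The ratio of Col1a1 to Col1a2 per kilobase of exon ranged from 2.30 in WT1 to 2.87 in WT4 with a median of 2.62, but per kilobase of coding sequence from 1.15 to 1.43 with a median of 1.31. The ratio therefore depends on the length used, since the annotated exons of Col1a2 cover 12426 bases and its coding sequence 4116.

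Col4a1 and Col4a2 are transcribed in opposite directions from 1 shared start region on chromosome 8, and their annotated first exons overlap by 22 bases. Col4a1 was 1407, 1440, 1619, 1460 and 1378 CPM in KO1 to KO5 and 1354, 1279, 1744 and 1655 in WT1 to WT4. Col4a2 was 791, 856, 936, 810 and 753 in KO1 to KO5 and 766, 725, 950 and 948 in WT1 to WT4. WT3, WT4 and KO3 were highest and WT2 lowest for both. Their r was 0.96 and rho 0.97 (adjusted p = 0.00049 and 0.00071, 2-sided exact permutation test), and r was 0.95 without WT3 and WT4. The ratio per kilobase of exon stayed between 1.49 and 1.63.

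Type VI chains also followed each other. Col6a1 was 1164, 1151, 1216, 1247 and 1018 CPM in KO1 to KO5 and 1189, 998, 1195 and 1235 in WT1 to WT4, so KO5 and WT2 were lowest and the genotypes overlapped. Col6a2 was 989, 955, 995, 1064 and 832 CPM in KO1 to KO5 and 978, 765, 1046 and 1201 in WT1 to WT4. Col6a3, the longest of these chains, was 781, 679, 872, 1057 and 626 CPM in KO1 to KO5 and 782, 575, 1000 and 971 in WT1 to WT4. WT2 and KO5 were also lowest for these partners, and the genotypes overlapped. Col6a1 correlated with Col6a2 (r = 0.93, rho = 0.95, adjusted p = 0.00073 and 0.00071) and with Col6a3 (r = 0.90, rho = 0.95, adjusted p = 0.00058 and 0.00071), both in exact permutation tests. Without WT2 and KO5, r was 0.73 with Col6a2 and 0.87 with Col6a3. The ratio of Col6a1 to Col6a2 had a median of 2.29 per kilobase of exon and 1.22 per kilobase of coding sequence.

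Of the other pairs, Col8a1 was 21.2, 14.1, 19.0, 39.1 and 14.4 CPM in KO1 to KO5 and 25.2, 15.7, 22.9 and 15.2 in WT1 to WT4. KO4 was far above the other mice, and the genotypes overlapped. Col8a1 and Col8a2 correlated (r = 0.87, rho = 0.83, adjusted p = 0.0033 and 0.013, exact permutation test), with r = 0.79 without KO4 and KO2. Col4a3 and Col4a4 had r = 0.69 and rho = 0.70 (adjusted p = 0.035 and 0.058, exact permutation test) at counts as low as 5, and r = 0.66 without KO1 and WT1. The relation of Col5a1 with Col5a2 rested on WT2 and KO5, with r = 0.73 and rho = 0.53 in 9 mice (adjusted p = 0.032 and 0.17, exact permutation test) and r = -0.14 without those mice. Col4a5 and Col4a6, neighbours on the X chromosome that form 1 molecule, did not follow each other detectably, with r = -0.25 and rho = -0.35 (adjusted p = 0.51 and 0.36, exact permutation test) and r = -0.62 without KO4 and KO2. All pairs share the libraries and their scaling. Chains of different molecules were not correlated with each other, so these correlations are not shown to be particular to partners. WT2 was the lowest mouse for 15 of the 36 tested chains and KO4 the highest for 14. The mice with high Xist number 4 and those with low Xist 5, under the minimum of 6 set here for a correlation.

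**Figure D2:**
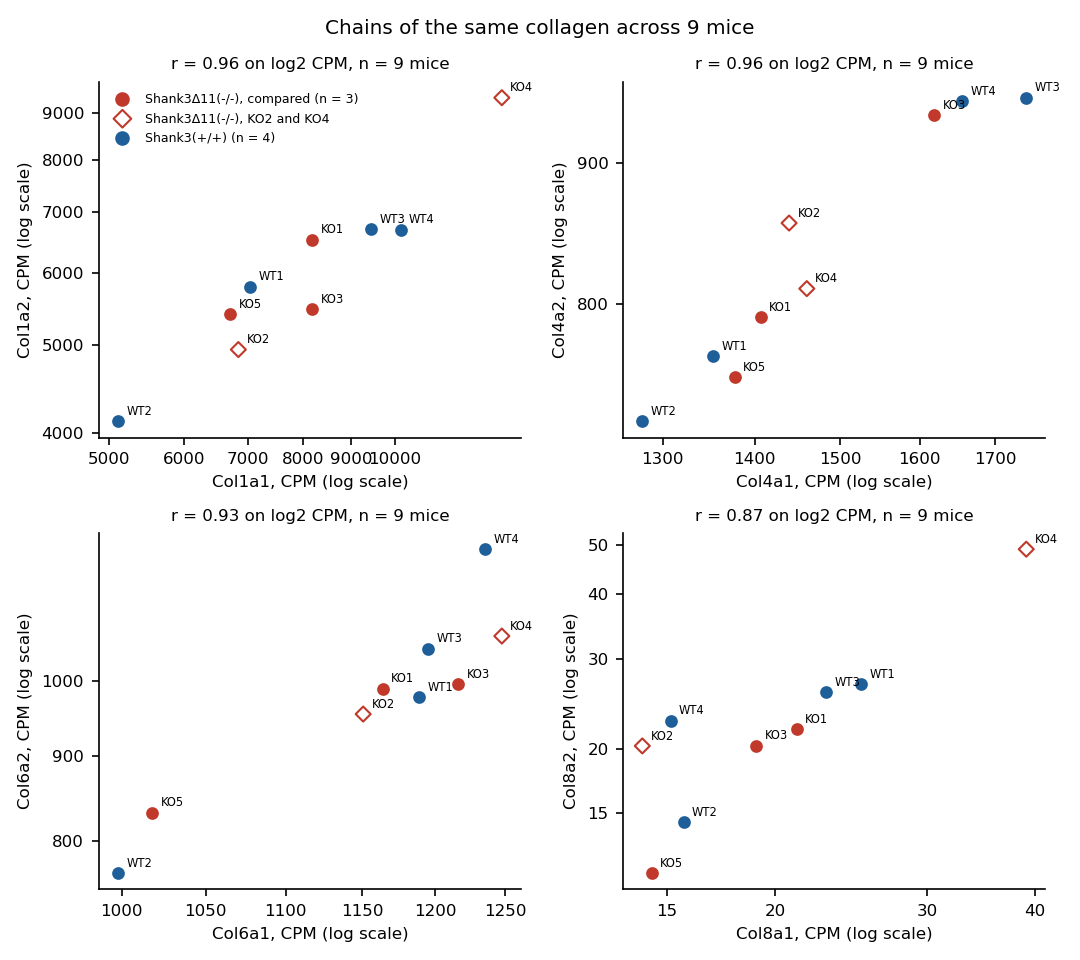
CPM of 1 chain against that of its partner in the 9 mice, on log axes, for types I, IV, VI and VIII, with the mouse beside each point. Points run along a line in each panel, KO4 is at the upper end for types I and VIII, and WT2 or KO5 at the lower end for types I, IV and VI.

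The spread over the mice differed between chains. In 10 of 37 chains the highest of the 9 mice was less than 1.5 times the lowest, in 15 it was 1.5 to 2 times, and in 12 over 2 times. The steadiest were Col6a1 at 1.25 times, Col6a6 at 1.30 and Col4a2 at 1.31. The widest were Col4a3 at 4.58 times, Col8a2 at 4.26 and Col28a1 at 3.45. KO4 was the highest mouse for 14 of the 36 tested chains and WT2 the lowest for 15. For Col8a2, KO4 was at 49.0 CPM and KO5 at 11.5, and the other mice lay between 14.4 and 26.8. For Col28a1, KO4 was lowest at 2.29 CPM, and the others were between 5.44 and 7.89. KO4 also had the highest sums of cartilage and tendon markers, with 1014 CPM of 5 tendon markers against 498 to 741 in the other mice. Its sum of 7 connective tissue fibroblast markers was the highest as well, 1461 CPM against 914 to 1345. Not every marker was highest in KO4. Of the fibroblast markers, Dcn, Lum and Mfap5 were, but Pdgfra, Dpt, Pi16 and Thy1 were not. Of the tendon markers, all but Scx were, which was 21.9 CPM against 31.9 CPM in WT4. The part of these tissues in the collagen levels of KO4 was not tested, and in bulk RNA fewer cells of a type and less RNA per cell cannot be told apart.

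**Figure D3:**
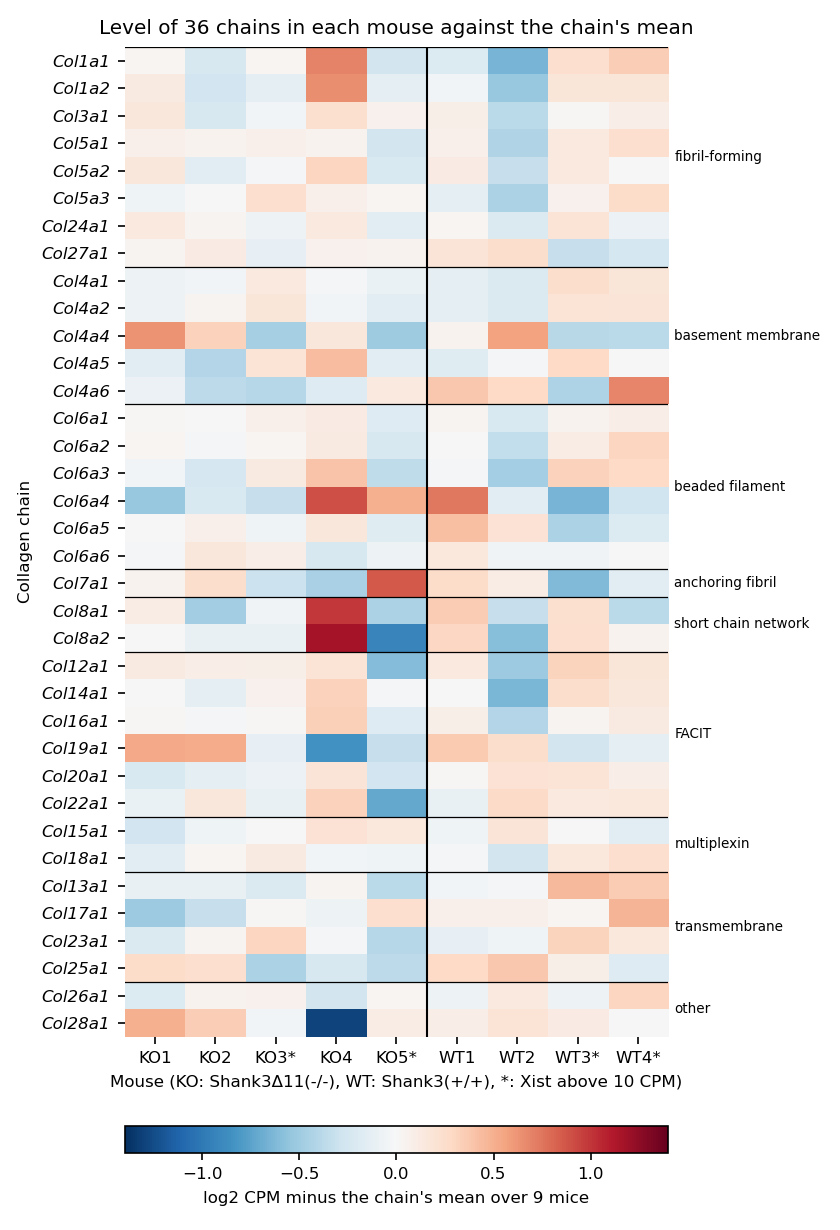
Heat map of 36 chains (rows, by class) in 9 mice (columns), where the colour is log2 CPM minus the mean of that chain. KO4 is above the mean for types I and VIII and below it for Col28a1 and Col19a1, and WT2 is below the mean for most fibril-forming and beaded filament chains and for 3 of 6 FACITs.

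The question of the comparison between genotypes was whether any collagen chain was expressed differently in Shank3Δ11(-/-) muscle. No chain met the criterion of the study, p below 0.05 with a false discovery rate (FDR) below 25%, in the comparison of 3 Shank3Δ11(-/-) with 4 Shank3(+/+) mice. Over all 21809 genes tested, edgeR called 0 genes at this criterion, a share of 0%. The study itself reported differentially expressed genes at this criterion with limma, so the count of 0 differs from its result. The cause of that difference was not tested. At an unadjusted p below 0.05, 3 of 36 chains were lower in Shank3Δ11(-/-) mice, Col13a1, Col20a1 and Col22a1, and 0 were higher. The shares among all genes were 2.08% in either direction and 0.917% for lower. DESeq2 and limma-voom likewise called 0 chains and gave the same 3 with p below 0.05. The lowest FDR of any chain was 1.00. The count of 3 fell to 0 without KO5, to 1 without WT3 or WT4, and to 1 with KO2 and KO4 included. The share of all genes with p below 0.05 also moved, to 1.01% without KO5, 1.85% without WT3 and 2.09% without WT4. It was 2.03% with KO2 and KO4 included.

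The differences were small for the rest. The difference of the group means was below the larger of the 2 SDs in 34 of 37 chains, and the log2 fold change was below its standard error (SE) in 28 of 36. Fold changes ranged from -0.44 for Col13a1 to 0.35 for Col7a1 on the log2 scale. The median was -0.06 over the 36 chains and -0.01 over all genes tested, and the median size regardless of sign was 0.09 and 0.10. Of the 36 chains, 31 were fitted lower and 5 higher, a lower share of 86.1% against 52.2% of all genes. The chains share mice and move together, as the correlated pairs show, so this share carries no test. With all 9 mice it was 20 lower and 16 higher with a median of -0.02, and without KO5 it was 19 lower and 18 higher of 37 tested. The 7 connective tissue fibroblast markers summed to 1041 to 1345 CPM in the 3 compared Shank3Δ11(-/-) mice and 945 to 1141 CPM in Shank3(+/+). In edgeR 2 of the 7 had p below 0.05, both higher in Shank3Δ11(-/-), Dpt by 0.77 ± 0.30 and Thy1 by 0.54 ± 0.23 on the log2 scale (SE, FDR = 1.00, exact permutation p = 0.14 and 0.11). The other 5 did not move one way, with Pdgfra at -0.24 ± 0.15, Pi16 at -0.21 ± 0.21, Lum at 0.05 ± 0.14, Mfap5 at 0.09 ± 0.15 and Dcn at 0.21 ± 0.13. All 7 had counts in every mouse, KO5 was the highest of the 9 mice for Dpt and Thy1, and their part in the collagen levels was not tested.

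**Figure D4:**
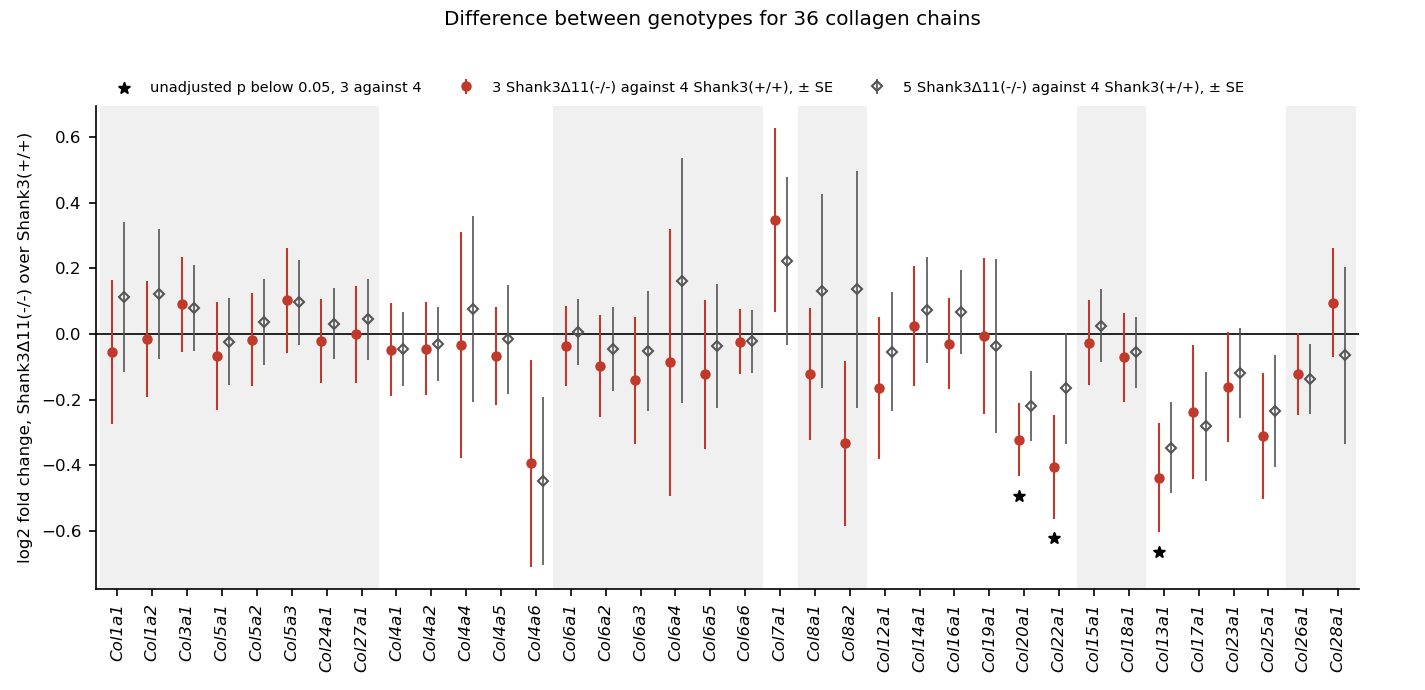
Fitted log2 fold change of Shank3Δ11(-/-) over Shank3(+/+) with its SE for 36 chains, from 3 against 4 mice (filled) and from 5 against 4 mice (open), with shading by class. Stars mark Col20a1, Col22a1 and Col13a1, the 3 chains with an unadjusted p below 0.05, and most other values lie within 1 SE of 0.

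Col13a1 (chr10:61838236-61979108) is the collagen of the muscle fibre membrane at the neuromuscular junction, where it takes part in synapse maturation. It was 9.80, 9.15 and 8.16 CPM in KO1, KO3 and KO5, 9.84 and 10.8 in KO2 and KO4, and 10.3, 10.4, 14.5 and 13.5 in WT1 to WT4. The 3 compared Shank3Δ11(-/-) mice lay below all 4 Shank3(+/+) mice, but KO4 overlapped with WT1 and WT2. The means were 9.04 ± 0.83 (SD, n = 3) and 12.2 ± 2.2 CPM (SD, n = 4). The log2 fold change was -0.44 ± 0.17 (SE, edgeR p = 0.0239, FDR = 1.00), and the 2-sided exact permutation test gave p = 0.086, where 0.029 is the smallest it can give. With 5 against 4 mice the log2 fold change was -0.35 ± 0.14 (edgeR p = 0.0271), and the exact permutation p was 0.032. Without KO3, KO5, WT3 or WT4 the edgeR p was 0.051, 0.083, 0.074 and 0.056.

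Col20a1 (chr2:180986535-181018363) is a FACIT of low level that shares its longest run of 32 repeats with Col12a1 and Col14a1 in length. It was 19.1, 21.0 and 18.5 CPM in KO1, KO3 and KO5, 20.4 and 25.2 in KO2 and KO4, and 22.4, 25.6, 25.4 and 23.7 in WT1 to WT4. Again the 3 compared Shank3Δ11(-/-) mice were below all Shank3(+/+) mice, KO2 as well, and KO4 overlapped with them. The means were 19.5 ± 1.3 (SD, n = 3) and 24.3 ± 1.5 CPM (SD, n = 4). The log2 fold change was -0.32 ± 0.11 (SE, edgeR p = 0.0150, FDR = 1.00), and the exact permutation p of 0.029 is the smallest that 3 against 4 mice can give. With all 9 mice it was -0.22 ± 0.11 (edgeR p = 0.0625, exact permutation p = 0.056), and without KO5 the edgeR p was 0.051. Col13a1 and Col20a1 were the 2 chains of 37 whose 3 and 4 mice did not overlap in CPM, both lower, against 1.3% of all genes tested.

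Col22a1 (chr15:71795795-72034227) marks the myotendinous junction and is the FACIT with the longest unbroken run of the repeat. It lies 17.7 megabases from Shank3 on the same chromosome. It was 67.4, 67.0 and 43.7 CPM in KO1, KO3 and KO5, 80.0 and 89.7 in KO2 and KO4, and 66.8, 86.4, 79.2 and 79.8 in WT1 to WT4. The genotypes overlapped: KO1 and KO3 were at the level of WT1, KO5 was lowest and KO4 highest of the 9 mice. The log2 fold change was -0.40 ± 0.16 (SE, edgeR p = 0.0276, FDR = 1.00), and the exact permutation p was 0.11. With all 9 mice it was -0.17 ± 0.17 (edgeR p = 0.343, exact permutation p = 0.45), and without KO5 -0.23 (edgeR p = 0.115). Without WT2, WT3 or WT4 the edgeR p was 0.071, 0.057 and 0.051. Col14a1, the other chain on chromosome 15, had a log2 fold change of 0.03 ± 0.18.

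**Figure D5:**
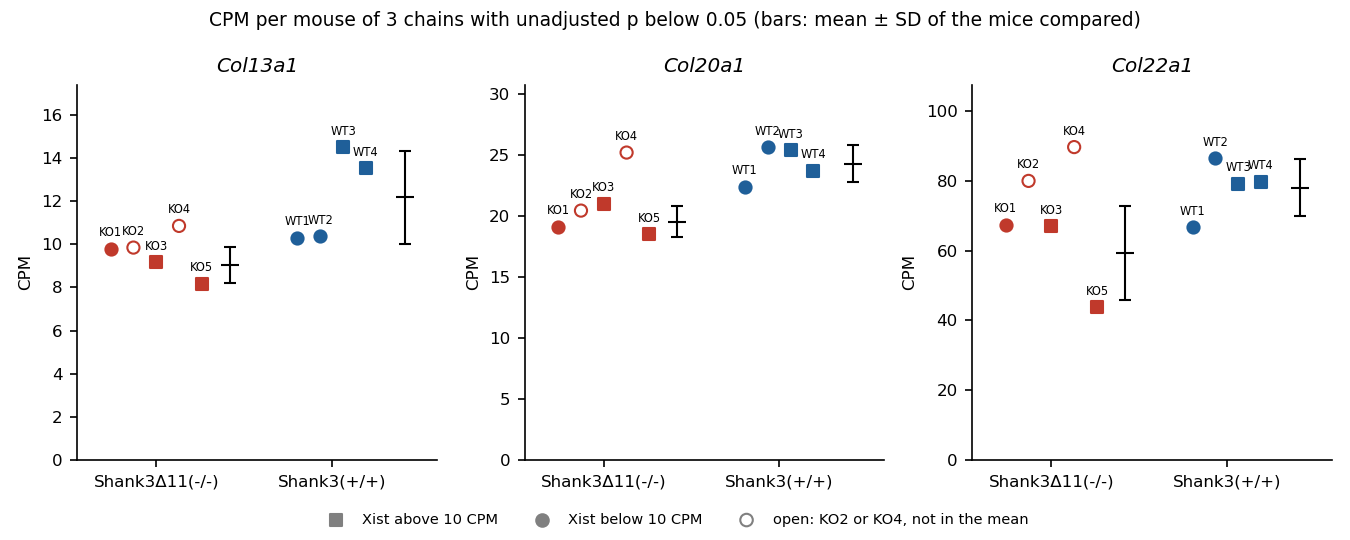
CPM per mouse of Col13a1, Col20a1 and Col22a1 on axes that start at 0, with squares for mice of Xist above 10 CPM, circles for the others, open symbols for KO2 and KO4, and the mean ± SD of the mice compared. KO5 is the lowest of the 9 mice for all 3 chains, and WT3 and WT4 are the highest for Col13a1.

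KO5 had the lowest value of the 9 mice for all 3 chains. It was also the mouse with the highest adipocyte and Schwann cell marker sums, and single myofibre markers differed in KO5 in both directions while their sum, 52955 CPM, lay within the range of the other mice. Myh3, the embryonic myosin heavy chain, was 2093 CPM in KO5 against 4169 to 5781 CPM in the other mice, and Actn2 of the Z-disc was also lowest in KO5 at 1602 CPM. Myh8, the perinatal myosin heavy chain, and Mylpf, a fast myosin light chain, were highest in KO5 at 19496 and 7354 CPM. The 5 tendon markers summed to 498 CPM in KO5, 623 and 691 in the other compared Shank3Δ11(-/-) mice, and 524 to 741 in Shank3(+/+). All 5 Schwann cell markers and all 5 tendon markers had counts in every mouse. Of the adipocyte markers, 4 had counts in each mouse and Cfd was at 0 in KO4 and WT3. The part of these tissues in the 3 chains was not tested.

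In no class did the chain of highest CPM have p below 0.05. Col1a1 had a log2 fold change of -0.05 ± 0.22 (SE), Col4a1 of -0.05 ± 0.14, Col6a1 of -0.04 ± 0.12, Col12a1 of -0.16 ± 0.22 and Col15a1 of -0.03 ± 0.13. Col14a1, the highest FACIT per kilobase, had 0.03 ± 0.18. For Col1a1 the interval of 2 SE to either side runs from -0.49 to 0.38, and a p above the threshold does not show equal levels. The FACIT Col12a1 was 513, 501, 494, 535 and 309 CPM in KO1 to KO5 and 515, 329, 581 and 527 in WT1 to WT4. KO5 and WT2 were far below the other mice, and the genotypes overlapped. The multiplexin Col15a1 was 250, 290, 303, 347 and 334 CPM in KO1 to KO5 and 288, 340, 300 and 270 in WT1 to WT4. KO4 was highest and KO1 lowest, with the Shank3(+/+) mice between them. All 6 type VI chains were fitted slightly lower, between -0.14 for Col6a3 and -0.02 for Col6a6, with p from 0.481 to 0.837. The 5 tested type IV chains were between -0.39 for Col4a6 and -0.03 for Col4a4, with p from 0.238 to 0.923. The fibril-forming chains were between -0.07 for Col5a1 and 0.10 for Col5a3, with p from 0.534 to 0.993.

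The transmembrane collagens had the lowest median of the classes with at least 3 chains, -0.27 with 4 chains fitted lower. Col25a1 was 20.1, 12.4 and 13.1 CPM in KO1, KO3 and KO5, 19.8 and 14.4 in KO2 and KO4, and 20.4, 22.0, 17.8 and 14.8 in WT1 to WT4. The genotypes overlapped, and the log2 fold change was -0.31 ± 0.19 (SE, edgeR p = 0.133, exact permutation p = 0.20), the lowest edgeR p after the 3 chains above. Col23a1 was 69.3, 98.2 and 60.7 CPM in KO1, KO3 and KO5, 82.4 and 79.1 in KO2 and KO4, and 74.1, 76.7, 98.9 and 88.6 in WT1 to WT4. It also overlapped, with a log2 fold change of -0.16 ± 0.17 (SE, edgeR p = 0.359, exact permutation p = 0.46). The value depended on single mice, with -0.39 without KO3, -0.03 without KO5 and -0.07 without WT3. Without KO3 the edgeR p was 0.0265 and the FDR 1.00. Col17a1 had -0.24 ± 0.20 (edgeR p = 0.270, exact permutation p = 0.34).

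Col7a1, the chain fitted highest in Shank3Δ11(-/-) mice, rested on KO5. It was 29.6, 23.1 and 51.9 CPM in KO1, KO3 and KO5, 33.9 and 20.9 in KO2 and KO4, and 34, 30.7, 18.6 and 25.7 in WT1 to WT4. KO5 alone was above the Shank3(+/+) mice. The log2 fold change of 0.35 ± 0.28 (SE, edgeR p = 0.246, exact permutation p = 0.49) was -0.06 without KO5. Col8a2 was 21.9, 20.3 and 11.5 CPM in KO1, KO3 and KO5, 20.3 and 49.0 in KO2 and KO4, and 26.8, 14.4, 25.9 and 22.7 in WT1 to WT4. The groups overlapped, and its log2 fold change changed sign with the mice, from -0.33 ± 0.25 with 3 against 4 (edgeR p = 0.213, exact permutation p = 0.40) to 0.14 ± 0.36 with 5 against 4 (edgeR p = 0.715), and without WT2 it was -0.50 (edgeR p = 0.0471, FDR = 1.00). Col26a1 was 59.5, 70.4, 70.5, 56.8 and 69.3 CPM in KO1 to KO5 and 64.7, 74.3, 64.6 and 83.5 in WT1 to WT4. WT4 and WT2 were highest and KO4 lowest, and the genotypes overlapped. Col26a1 had a log2 fold change of -0.12 ± 0.12 (edgeR p = 0.356, exact permutation p = 0.46) and Col28a1 of 0.10 ± 0.17 (edgeR p = 0.578, exact permutation p = 0.71). Col4a3, which was not tested, averaged 0.368 ± 0.307 CPM (SD, n = 3) against 0.298 ± 0.123 CPM (SD, n = 4).

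With KO2 and KO4 included, 1 of 36 chains had p below 0.05, Col13a1, against 2.03% of all genes, and the lowest FDR of any chain was 1.00. No chain had groups of 5 and 4 mice that did not overlap. The share over all genes was not taken for these groups, so this is no result about collagens.

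The division by Xist crosses the genotypes and was examined because the labels give no sex. In all 9 mice, 5 of 36 chains differed between mice with high and low Xist at an unadjusted p below 0.05 beside the genotype term in edgeR, against 8.96% of all genes, and 0 at an FDR below 25%. Col4a4 was lower in mice with high Xist by 0.79 ± 0.20 on the log2 scale (SE, FDR = 0.46). Col25a1 was lower by 0.45 ± 0.12 (FDR = 0.48), Col6a5 by 0.39 ± 0.16 (FDR = 0.54) and Col27a1 by 0.28 ± 0.10 (FDR = 0.50), and Col5a3 was higher by 0.27 ± 0.11 (FDR = 0.52). For Col4a4 the mice with high Xist had 1.14 to 1.24 CPM and the others 1.66 to 2.47 CPM, without overlap. All mice numbered 1 and 2 had low Xist, so number and Xist can hardly be told apart.

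The difference between genotypes was then compared between mice of high and low Xist, a test chosen after the data were seen. The interaction had p below 0.05 for 4 of 36 chains in edgeR, against 4.08% of all genes, and an FDR no lower than 0.98. For Col13a1 the difference of mean log2 CPM was -0.69 in the mice with high Xist (KO3 and KO5 against WT3 and WT4) and -0.03 in the others (interaction -0.67 ± 0.22, SE). For Col1a1 these values were -0.40 and 0.58 (interaction -1.01 ± 0.38), for Col12a1 -0.50 and 0.33 (-0.75 ± 0.32), and for Col27a1 0.25 and -0.14 (0.40 ± 0.17). KO4, which was highest for Col1a1, is 1 of the 3 Shank3Δ11(-/-) mice with low Xist.

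The enzymes and partners of collagen were taken from 5 lists. Of 58 genes for modification and folding of the chains, removal of propeptides, crosslinking, fibril binding and receptors, 57 could be tested with 3 against 4 mice. Of these, 32 were fitted lower and 25 higher, where 52.2% of all genes were fitted lower. In edgeR 0 had p below 0.05 with 7 or with 9 mice, against 2.08% and 2.03% of all genes. Among the genes of highest CPM in each list, Serpinh1, the chaperone of procollagen in the endoplasmic reticulum, was 581 ± 178 CPM (SD, n = 3) and 613 ± 225 CPM (SD, n = 4), a log2 fold change of -0.09 ± 0.30 (SE). Pcolce, which enhances removal of the C-propeptide, had 0.06 ± 0.12, and Lox, which crosslinks collagen and elastin, had -0.10 ± 0.16. Sparc, a matrix protein that binds collagen, had 0.12 ± 0.12, and Itgb1, the β subunit of the collagen-binding integrins, had -0.04 ± 0.12.

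The 7 cartilage collagens that were left out are given for comparison. Col2a1 was 133 CPM in KO4 and 19.5 to 35.7 CPM in the other mice, and Col11a2 was 198 CPM in KO4 and 54.7 to 109 CPM in the others. Col10a1 of growth cartilage ranged from 0.0944 to 7.07 CPM. None of the 7 had p below 0.05 in either comparison in edgeR, and the lowest was that of Col10a1 (p = 0.0723 with 3 against 4 mice, exact permutation p = 0.29). Col1a1, Col8a1 and Col8a2 were among the 14 chains that were highest in KO4.

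Skin markers were examined beside Col17a1. Krt5, a keratin of basal keratinocytes, was 22.2 CPM in WT4, the highest of the 9 mice, and 0.814 and 0.747 CPM in KO1 and KO2, and all 5 keratinocyte markers had counts in every mouse. Col17a1 was highest in WT4 at 9.14 CPM and lowest in KO1 and KO2 at 4.63 and 5.26 CPM. After WT4, KO5 was next highest in both Col17a1, at 7.74 CPM, and the keratinocyte sum, at 23.5 CPM. Among the remaining mice the order differed in part. WT1 and WT3 had more Col17a1, 6.89 and 6.72 CPM, than KO3 and KO4 with 6.64 and 6.25 CPM. Their keratinocyte sums were lower, 10.9 and 11.1 CPM against 19.7 and 19.5 CPM. The 5 keratinocyte markers summed to between 6.07 and 23.5 CPM in the 3 compared Shank3Δ11(-/-) mice and between 10.9 and 49.5 CPM in Shank3(+/+). The part of skin in the level of Col17a1 was not tested.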

How the data were processed

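Libraries came from the gastrocnemius of 9 mice. The authors mapped reads to mm10 with HISAT2, kept concordantly mapped reads and deposited raw counts per Ensembl gene from featureCounts. Not given in the sources used here were the annotation release, strandedness and the treatment of multi-mapping reads. Exons of 11 chains share bases with another annotated gene, at most 5.65% of exon length (Col4a3). Fold changes and p-values came from the edgeR 4.0.16 quasi-likelihood test (R 4.3.3, TMM, filterByExpr with minimum count 10 and minimum total 15, robust), with Benjamini-Hochberg adjustment over all genes, and were tested on simulated data. Replicates are mice, 1 library each. For single chains a 2-sided exact permutation test of mean log2 CPM was added. Symbols were found for 55144 IDs, and positions and lengths came from GENCODE M21. The members and lists were chosen with earlier results of these data known. Values in every mouse are given for the highest chain of each class, chains with p below 0.05, chains without overlap and their partners. Alternatives were DESeq2 1.42.0, limma-voom 3.58.1, other normalizations and filters, a replicate block, an Xist term and each mouse left out. KO2 and KO4 were left out by the study for too few reads, but in the deposited counts KO4 had the highest total (40471957), KO2 had 28211941 and the kept KO5 the lowest (26444372). Figures used matplotlib 3.10.9 in Python 3.11.15. Totals of 26444372 to 40471957 counts make 1 count worth 0.0263 to 0.0379 CPM.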

Additional observations from a re-analysis of the deposited data

Results flagged for a closer look

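Of 74 groups of 4 or 5 mice, 7 held a mouse whose gap to the nearest other exceeded the 95% critical value of Dixon's test, a share of 9.46%, where chance gives about 1 in 20 and the same rule gave 5.21% of 43470 groups over all genes tested with 9 mice. The chains share mice, so this share carries no test. In the Shank3Δ11(-/-) group, KO4 was far above the others for Col1a1 (12974 CPM), Col8a1 (39.1 CPM) and Col8a2 (49.0 CPM), KO1 for Col4a3 (0.720 CPM, 23 counts), and KO5 was far below for Col5a1 (799 CPM) and Col12a1 (309 CPM). In Shank3(+/+), WT4 was far above for Col17a1 (9.14 CPM). For 4 chains the genotype difference itself differed between mice of high and low Xist at an unadjusted p below 0.05 in edgeR, by -1.01 for Col1a1, -0.75 for Col12a1, -0.67 for Col13a1 and 0.40 for Col27a1 on the log2 scale, with FDR no lower than 0.98. KO4, with the highest cartilage marker sum of the 9 mice (430 CPM), enters the low Xist group of this test.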

How the results depend on the processing

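The count of chains called was 0 in edgeR, DESeq2 and limma-voom, under every normalization, filter, block, Xist term and mouse left out. The count with p below 0.05 was 3 with other normalizations, filters and tests and with the Xist term in 7 mice. It was 2 with that term in 9 mice, which was chosen after seeing the data, and 1 with all 9 mice. When a mouse was left out it was 0 to 4, 0 without KO5 and 1 without WT3 or WT4. The share of all genes then ran from 1.01% without KO5 to 4.35% without KO1. Mice with the same number did not deviate together in every pair (r of 0.37, 0.05, 0.36 and 0.10), so the numbers were not taken to pair the mice, although 3 of the 4 Shank3Δ11(-/-) mice with a numbered counterpart, KO1, KO3 and KO4, correlated best with the mouse of their own number (KO2 with WT1). With the replicate block the count was 2 with 7 mice (Col8a2 and Col13a1) and 1 with 9 mice (Col17a1). In 7 mice the block gave -0.26 for Col20a1 (edgeR value of 0.0599 for p) and -0.12 for Col22a1 (0.330). The median log2 fold change of the chains ranged from -0.14 to 0.03 and was above 0 only with the block and 9 mice. No named chain reversed its direction past the threshold. Col20a1, Col13a1 and Col22a1 kept p below 0.05 in 15, 15 and 12 of 20 alternatives. The cause of these differences was not tested. With 3 and 4 mice an SE of 0.10 to 0.41 limits what could be detected for single chains.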
